A study of Mus musculus with 8 samples.

Results

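The genes described are 10 mouse genes of iron handling: the uptake genes Slc11a2, Cybrd1 and Tfrc, the ferritin chains Fth1 and Ftl1, the export genes Slc40a1 and Heph, the haem-degrading enzyme gene Hmox1, and the sensor genes Aco1 and Ireb2. They were chosen by symbol from the 45777 genes of the deposited table. All 10 were found, and all 10 had enough counts to be tested. RNA was sequenced from colonic organoids, epithelial cultures grown in Matrigel from crypts of male mice aged 9 weeks. The KO libraries (replicates 5 to 8) came from Reg3aΔIEC organoids, in which Villin-Cre, active in intestinal epithelium, removed the loxP-flanked exons 2 to 4 of Reg3a. The WT libraries (replicates 13 to 16) came from Reg3afl/fl organoids, which carry the same loxP sites. All cultures were collected 3 days after passage, at no more than 15 passages, with nothing further added. The source mice were C57BL/6J. The labels disagree on replication, with 1 mouse of each genotype spread over 4 wells in 1 text but 3 mice of each genotype in another. The p-values therefore measure the spread between libraries, which may be technical, and genotype cannot be told apart from mouse or organoid line.

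Iron enters an absorptive epithelial cell from the lumen through the proton-coupled transporter DMT1, encoded by Slc11a2, after reduction by surface reductases such as the product of Cybrd1. From the blood side it enters bound to transferrin through the receptor encoded by Tfrc. Inside the cell it is stored in ferritin, a shell of heavy chains (Fth1), which oxidise iron, and light chains (Ftl1). It leaves through ferroportin (Slc40a1), the known mammalian iron exporter, helped by the ferroxidase hephaestin (Heph). Hmox1 encodes haem oxygenase 1, which frees iron from haem. The RNA-binding proteins IRP1 (Aco1, also a cytosolic aconitase) and IRP2 (Ireb2) bind hairpins called iron-responsive elements when iron is scarce. A hairpin in the 5′ untranslated region lets them block translation, and hairpins in the 3′ untranslated region of Tfrc let them protect the RNA from decay. Most iron absorption takes place in the duodenum, but RNA of these genes was also measured in these colonic organoids, with Cybrd1 barely present.

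The hairpins are shown because they divide the members into RNAs with the element before the coding region and RNAs with it after. GENCODE M21 coding transcripts (GRCm38) were searched on the transcript strand for a C, 5 bases, the loop CAGTGN (with N not G) and 5 more bases, where at least 4 of the 5 positions on either side of the loop could pair. Each line gives 29 bases 5′ to 3′, with the bulged C and the 6-base loop in capitals.
Fth1, 5′ untranslated region, chr19:9982732-9982760, plus strand: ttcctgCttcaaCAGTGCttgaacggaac
Ftl1, 5′ untranslated region, chr7:45459779-45459807, minus strand: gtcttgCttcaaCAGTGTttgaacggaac
Slc40a1, 5′ untranslated region, chr1:45925465-45925493, minus strand: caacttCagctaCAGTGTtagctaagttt
Slc11a2, 3′ untranslated region, chr15:100395153-100395181, minus strand: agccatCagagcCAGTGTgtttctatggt
Tfrc, 3′ untranslated region, chr16:32631219-32631247, plus strand: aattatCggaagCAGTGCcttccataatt
Tfrc, 3′ untranslated region, chr16:32631710-32631738, plus strand: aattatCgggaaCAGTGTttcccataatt

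Tfrc held 4 such matches in its 3′ untranslated region, of which the first and last along the transcript are shown. All 5 stem positions could pair in each match shown except that of Slc11a2, where 4 could. Such letters occurred in the 5′ untranslated region of 0.654% of 21877 coding genes and in the 3′ untranslated region of 3.04%. With all 5 positions paired these shares were 0.105% and 0.457%. Heph had a match within its coding region, as did 4.64% of coding genes. Cybrd1, Hmox1, Aco1 and Ireb2 had no match. The matches in Slc11a2 and Slc40a1 lie in 1 of 6 and 1 of 4 annotated coding transcripts. Each match in Tfrc lies in 1 of 3, that in Ftl1 in 1 of 2 and that in Fth1 in 4 of 5. The deposited counts are per gene, so forms with and without the hairpin were not separated. A match of letters is a description and does not show that a protein binds there.

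Library totals ran from 37182098 to 49256171 counts, and the 10 members took between 0.548% and 0.619% of them. In the comparison of KO with WT, 15.9% of the 14945 genes tested passed an adjusted p of 0.05 (edgeR quasi-likelihood test, Benjamini-Hochberg adjusted over all genes tested). Higher calls made up 7.63% of all genes tested and lower calls 8.26%. The labelled tissue was matched by epithelial markers: 7 of 7 were measured, at a summed 10364 to 10982 CPM in KO and 9968 to 10739 CPM in WT. CPM values are read counts put on a common scale of library size. Of 10 small intestinal markers 4 had enough counts to be tested, and Alpi and Mep1a rose. The list summed to 68.4 to 74.6 CPM in KO and 35.7 to 44.4 CPM in WT, while Sis, Lct, Apoa4 and Fabp1 had at most 6 counts in any library. Macrophage markers Cd163, C1qa and C1qb had 0 counts in every library, and the macrophage list summed to 28.7 to 44.1 CPM in KO and 31.2 to 43.4 CPM in WT, most of it Cd68. KO replicate 6 stood apart in blood and vessel genes. It held 480 counts of Lyz2, 43 of the globin gene Hbb-bs and 30 of the endothelial gene Cdh5, all of which were at 0 in the other 7 libraries. The calls for Slc11a2, Slc40a1 and Heph held without that library, with log2 fold changes of 0.71, 0.37 and 0.21. The call for Aco1 did not (edgeR adjusted p = 0.0616), and it also ended without several other single libraries.

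Of the 10 members, 4 rose in KO and none fell: Slc11a2, Slc40a1, Heph and Aco1. Among all genes tested 7.63% were called higher and 8.26% lower. The call of Aco1 was at the threshold (edgeR adjusted p = 0.0466). The gene for the entry carrier rose most, by 1.60-fold, followed by the exporter at 1.29-fold, its ferroxidase at 1.15-fold and the sensor Aco1 at 1.10-fold. The median log2 fold change of the members was 0.12, beside -0.0012 for all genes tested. Both ferritin chains, the transferrin receptor, Cybrd1, Hmox1 and Ireb2 did not pass the test. DESeq2 and limma-voom gave the same counts of 4 and 0, and at an unadjusted p of 0.05 the counts were also 4 and 0. In 4 members every KO library lay above every WT library, a pattern seen in 9.91% of all genes tested, and in no member did every KO library lie below, a pattern seen in 10.3%. In bulk RNA, a change in the share of a cell type and a change in RNA per cell cannot be told apart.

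**Figure D1:**
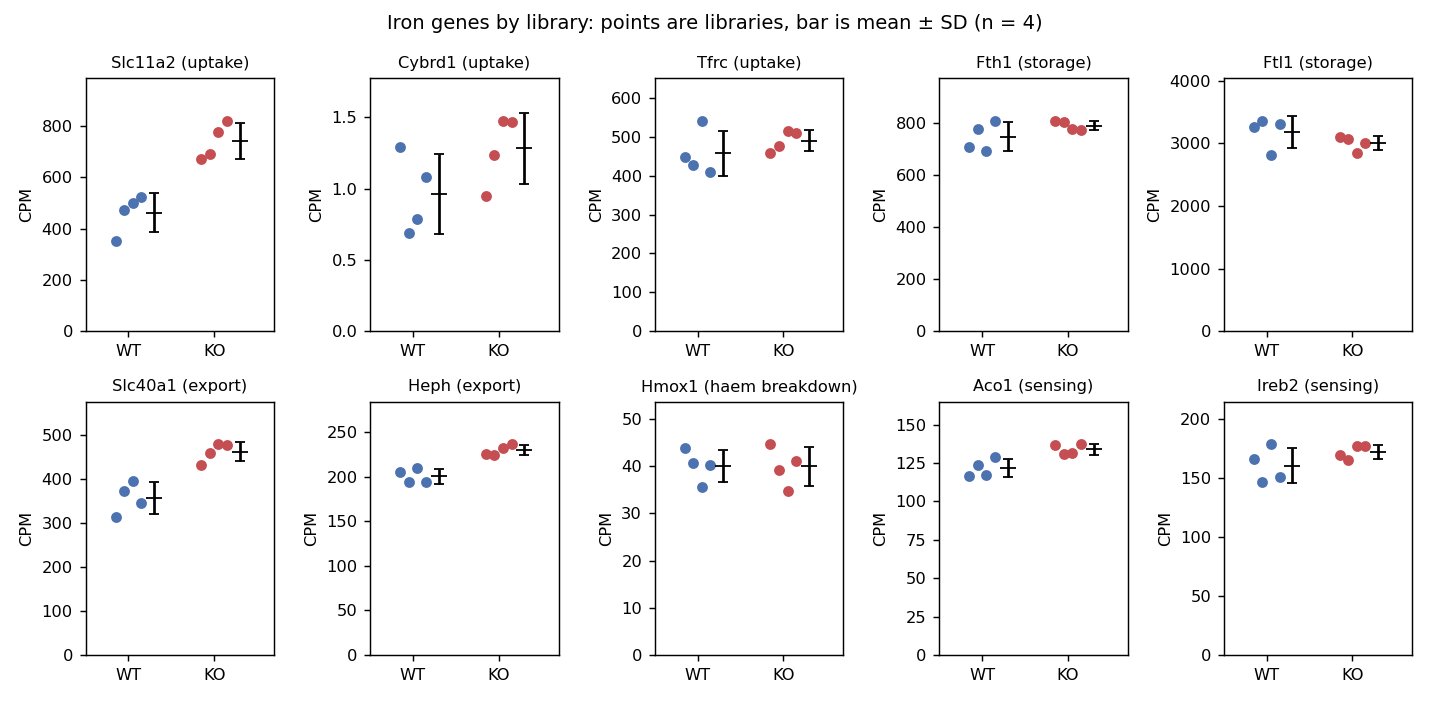
Scaled counts (CPM, y axis from 0) of each iron gene in the 4 WT (blue) and 4 KO (red) libraries, with the mean ± SD at the right of each group. Slc11a2, Slc40a1, Heph and Aco1 have no WT library that reaches the KO libraries, whereas the other 6 genes overlap.

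Among the uptake genes, Slc11a2 (NCBI Gene ID 18174, chromosome 15, 100387898 to 100424209) had 672, 692, 777 and 822 CPM in KO replicates 5 to 8. It had 351, 474, 499 and 522 CPM in WT replicates 13 to 16. The KO libraries were all above the WT libraries, and WT replicate 13 was the lowest. KO averaged 741 ± 70.6 CPM against 462 ± 76.3 CPM for WT (SD, n = 4). This log2 fold change, 0.68 with an SE of 0.10 and a 95% interval of 0.46 to 0.90, passed (edgeR adjusted p = 0.000534). Slc11a2 was also the most variable of the well-expressed members within WT, with a coefficient of variation of 16.5%. The gene Gm5475 overlaps Slc11a2 on the opposite strand, but had only 59 counts over the 4 KO libraries and 57 over the 4 WT libraries.

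Tfrc (NCBI Gene ID 22042, chromosome 16, 32608896 to 32632794), the other member with 3′ matches to the hairpin letters, had 458, 476, 515 and 509 CPM in KO and 448, 429, 542 and 411 CPM in WT. The highest of the 8 values was in WT replicate 15, and the groups overlapped. The log2 fold change was 0.10 ± 0.07 (SE; 95% interval -0.06 to 0.25; edgeR adjusted p = 0.422). This rested on WT replicate 15: without it Tfrc was called higher, at 0.19 with an edgeR adjusted p = 0.0144. The third uptake gene, Cybrd1 (NCBI Gene ID 73649), was barely present, with 40, 60, 70 and 68 counts in KO and 54, 34, 37 and 40 counts in WT. These groups overlapped. Cybrd1 did not pass (edgeR adjusted p = 0.256), and the 95% interval of its log2 fold change of 0.43 ran from -0.08 to 0.93, which includes the value of Slc11a2.

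Both export genes rose. Slc40a1 (NCBI Gene ID 53945, chromosome 1, 45908070 to 45926532) had 431, 459, 478 and 476 CPM in KO and 312, 373, 395 and 346 CPM in WT. The lowest KO library exceeded the highest WT library, which was again WT replicate 15. KO averaged 461 ± 21.9 CPM against 357 ± 35.8 CPM for WT (SD, n = 4), and the log2 fold change of 0.37, with a 95% interval of 0.24 to 0.51, passed (edgeR adjusted p = 0.00137). Heph (NCBI Gene ID 15203, chromosome X, 96455436 to 96574485) had 225, 225, 233 and 237 CPM in KO and 205, 194, 210 and 194 CPM in WT. Its groups did not overlap although the change was small, and the libraries of each genotype were close together. The log2 fold change of Heph was 0.20 ± 0.04 (SE; 95% interval 0.11 to 0.28; edgeR adjusted p = 0.00558). A pseudogene that overlaps Heph on the same strand, Rpl17-ps8, had 731 counts over the KO libraries and 698 over the WT libraries. The gene Hsf3, which overlaps Heph on the opposite strand, had 100 and 78.

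The storage genes were the most abundant members per transcript length, and neither passed the test. Fth1 (NCBI Gene ID 14319, chromosome 19, 9980600 to 9985111) had 810, 803, 777 and 775 CPM in KO and 707, 779, 694 and 809 CPM in WT. The KO values lay close together at the upper end of the WT range. Its log2 fold change was 0.08 ± 0.05 (SE; 95% interval -0.02 to 0.19; edgeR adjusted p = 0.296). Ftl1 (NCBI Gene ID 14325, chromosome 7, 45457944 to 45459886) had 3094, 3075, 2848 and 3013 CPM in KO and 3256, 3364, 2809 and 3302 CPM in WT. The lowest of all was WT replicate 15, and the other 3 WT libraries were above every KO library. The log2 fold change of Ftl1 was -0.08 ± 0.05 (SE; 95% interval -0.19 to 0.03; edgeR adjusted p = 0.331). Without WT replicate 15 it was -0.14 with an edgeR adjusted p = 0.0152, a call of lower in KO. The pseudogenes Ftl1-ps1 and Ftl2-ps held counts equal to 2.55% to 3.02% and 1.99% to 2.19% of those of Ftl1, so the division of reads among these copies is uncertain.

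Hmox1 (NCBI Gene ID 15368, chromosome 8, 75093618 to 75100593) averaged 40.0 ± 4.13 CPM for KO against 40.1 ± 3.45 CPM for WT (SD, n = 4). Its libraries ran from 34.7 to 44.6 CPM in KO and from 35.5 to 43.9 CPM in WT. The 95% interval of its log2 fold change, -0.17 to 0.16, bounds the difference on both sides (edgeR adjusted p = 0.979).

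Of the sensor genes, Aco1 (NCBI Gene ID 11428, chromosome 4, 40143265 to 40199009) had 137, 131, 131 and 137 CPM in KO and 116, 124, 117 and 129 CPM in WT. The highest WT library, replicate 16, came close to the lowest KO library without reaching it. The log2 fold change was 0.14 ± 0.04 (SE; 95% interval 0.045 to 0.24; edgeR adjusted p = 0.0466). That call was at the threshold. It ended without any 1 of the 4 KO libraries, without WT replicate 13 or 15 (edgeR adjusted p = 0.0616 to 0.142), and with no low-count filter (0.0602). Ireb2 (NCBI Gene ID 64602, chromosome 9, 54862658 to 54912534) had 169, 165, 177 and 176 CPM in KO and 166, 146, 178 and 151 CPM in WT. The groups overlapped, with WT replicate 15 highest of all. With all libraries Ireb2 differed by 0.10 on the log2 scale (SE 0.06, edgeR adjusted p = 0.286), and without WT replicate 15 by 0.16, which passed (edgeR adjusted p = 0.0408).

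**Figure D2:**
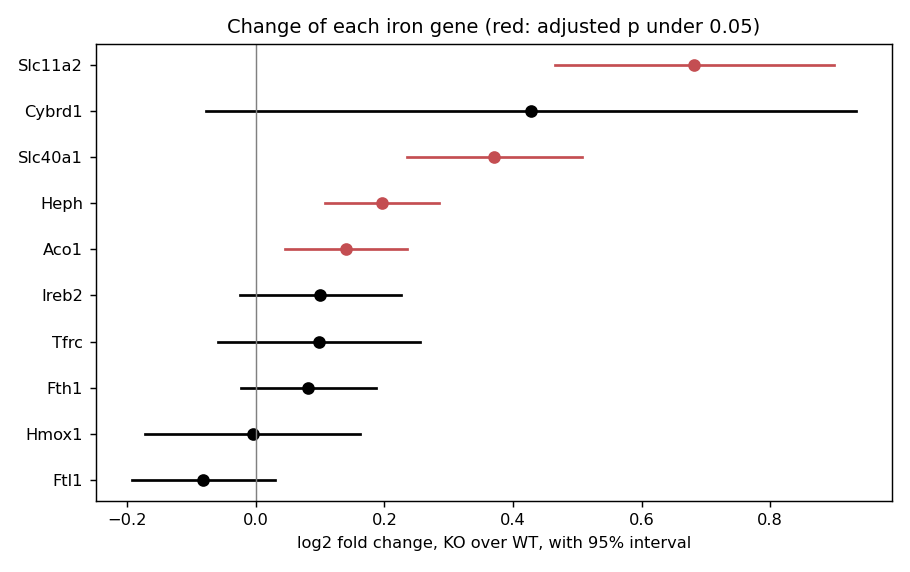
Log2 fold change of KO over WT (x axis) for each iron gene, with its 95% interval from the edgeR fit and the genes ordered by size. The 4 genes called (red) have intervals above 0, from Slc11a2 at 0.68 to Aco1 at 0.14.

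Ratios between members within a library do not depend on how libraries are scaled. No ratio passed after adjustment. With 4 against 4 libraries a ratio that alone reaches the lowest possible p cannot pass once adjusted, so not passing does not show that ratios were equal. Slc11a2 and Tfrc both have 3′ hairpins. Counts of Slc11a2 were 1.51 ± 0.0733 times those of Tfrc in KO and 1.02 ± 0.213 times in WT (SD, n = 4), a ratio of counts not corrected for length. On the log2 scale the ratio was 0.54 to 0.69 in KO and -0.35 to 0.35 in WT, so every KO library was above every WT library. The log2 difference was 0.59 (two-sided exact permutation test, p = 0.0286, which is the lowest value possible for 4 against 4; adjusted p = 0.0857 over 6 ratios). The log2 ratio of Slc40a1 to Fth1, which both have a 5′ match, differed by 0.29 (exact permutation p = 0.0571, adjusted p = 0.0857), with overlap. These pairs were chosen after their values were seen.

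In the balance of ferritin chains, the count ratio of heavy to light chain was 0.262, 0.261, 0.273 and 0.257 in KO and 0.217, 0.232, 0.247 and 0.245 in WT. The KO libraries were all above the WT libraries although neither chain alone passed its test. The log2 difference of 0.16 had a two-sided exact permutation p = 0.0286, the lowest value possible, and an adjusted p = 0.114 over 4 ratios. It did not pass, but no ratio that alone reached this lowest value could have passed. The count ratio of Slc40a1 to Slc11a2 was 0.625 ± 0.0361 in KO and 0.782 ± 0.0935 in WT (SD, n = 4). The groups overlapped, and the difference of -0.32 on the log2 scale did not pass (exact permutation p = 0.0571, adjusted p = 0.114). For Tfrc to Fth1 the log2 difference was 0.020 (exact permutation p = 0.886) and for Aco1 to Ireb2 it was 0.037 (exact permutation p = 0.714), each far smaller than the spread within WT.

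**Figure D3:**
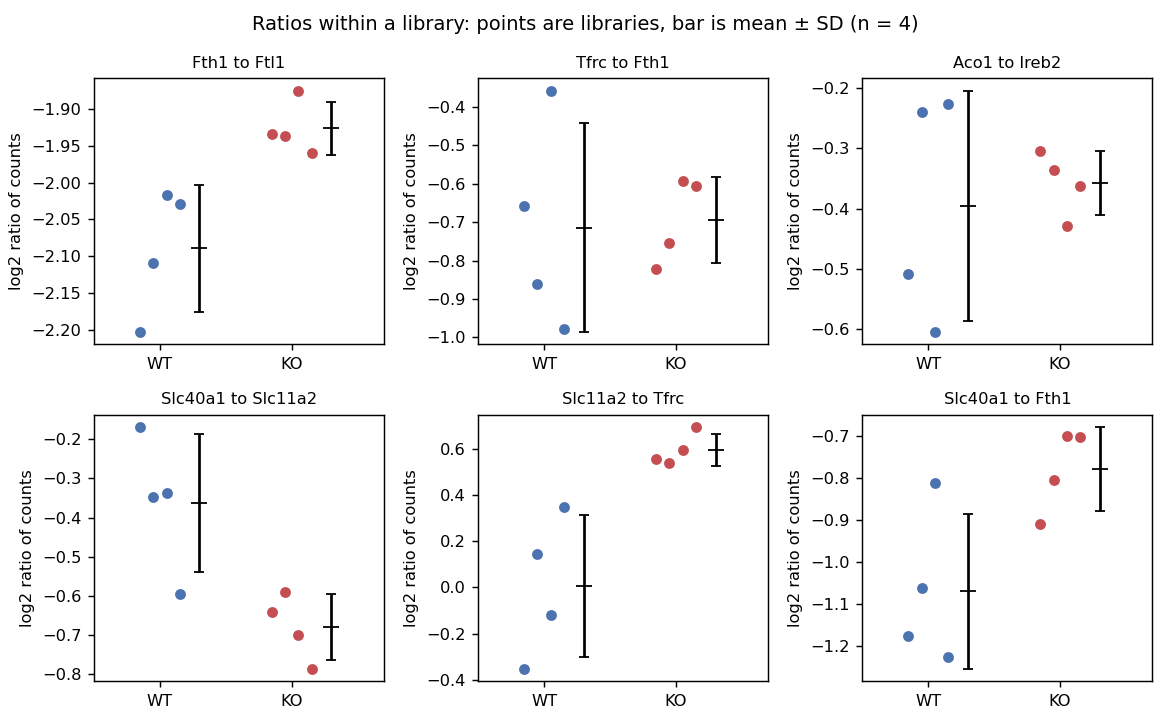
Log2 ratio of counts of pairs of iron genes in each library (y axis, different range per panel), with the mean ± SD at the right of each group (n = 4). The KO libraries lie above all WT libraries for Fth1 to Ftl1 and for Slc11a2 to Tfrc, and the WT libraries spread widely for Tfrc to Fth1 and Aco1 to Ireb2.

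Several members varied together between libraries. Over the 8 libraries log2 CPM of Tfrc and of Ftl1 had a Pearson r of -0.95 and a Spearman rho of -0.98. Without the 2 libraries farthest from the median of Tfrc, r was -0.94, and after removal of each genotype's mean it was also -0.94. In WT replicate 15 Tfrc and Ireb2 were at their highest and Ftl1 at its lowest. Within KO, replicate 7 had the most Tfrc and Ireb2 and the least Ftl1, and replicate 5 the least Tfrc and the most Ftl1. Tfrc and Ireb2 had r = 0.90 and rho = 0.90. With genotype means removed r was 0.88 for Tfrc and Ireb2, 0.96 for Heph and Ireb2 and 0.88 for Heph and Tfrc. For Fth1 it was then -0.94 against Heph, -0.91 against Ireb2 and -0.84 against Tfrc. Slc11a2 had r = 0.45 against Tfrc, beside higher values against Slc40a1 (r = 0.95, rho = 0.90) and Aco1 (r = 0.87, rho = 0.90). With genotype means removed, r of Slc11a2 was 0.78 against Slc40a1 but -0.024 against Heph, beside 0.81 before. These correlations describe 8 libraries of 2 genotypes that share the genotype difference, depth and scaling, and the pairs were singled out after all were seen.

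Among 14944 other genes tested, those whose log2 CPM followed Slc11a2 most closely over the 8 libraries were Fhl1 (r = 0.99, rho = 0.98), which encodes a LIM domain protein, Def8 (r = 0.99, rho = 0.95), Aldh1a3, a retinaldehyde dehydrogenase gene (r = 0.99, rho = 0.95), and Eif4g3, of the translation initiation factor 4G family (r = 0.99, rho = 1). Each rose in KO, at log2 fold changes of 0.43, 0.23, 0.35 and 0.23 (edgeR adjusted p = 0.000333, 0.0162, 0.00303 and 0.00455). They were picked for following a member that separated the genotypes in these same libraries. A rise in KO was therefore built into the choice, and these p-values are no separate evidence. All 4 changed by less than Slc11a2 did.

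Levels can be compared between genes only per transcript length, for which the authors' FPKM values (fragment counts scaled for transcript length and library depth) were used. Ftl1 stood highest, at 2679 ± 84.4 FPKM in KO and 2838 ± 180 in WT, followed by Fth1 at 726 ± 10.9 and 686 ± 38.9 (SD, n = 4). The surface carriers followed. Slc11a2 was at 154 ± 15.7 FPKM in KO and 96.5 ± 15.5 in WT, Slc40a1 at 118 ± 6.45 and 91.4 ± 10.5, and Tfrc at 86.0 ± 5.55 and 80.7 ± 12.1. Those 3 genes overlapped within WT, whereas in KO they were separate and in that order. Heph lay between 35.4 and 44.5 FPKM in all libraries. Aco1, Ireb2 and Hmox1 followed with overlapping ranges of 23.3 to 27.7, 21.8 to 27.4 and 19.2 to 24.4 FPKM. Cybrd1 was far below the rest, at 0.113 to 0.247 FPKM.

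**Figure D4:**
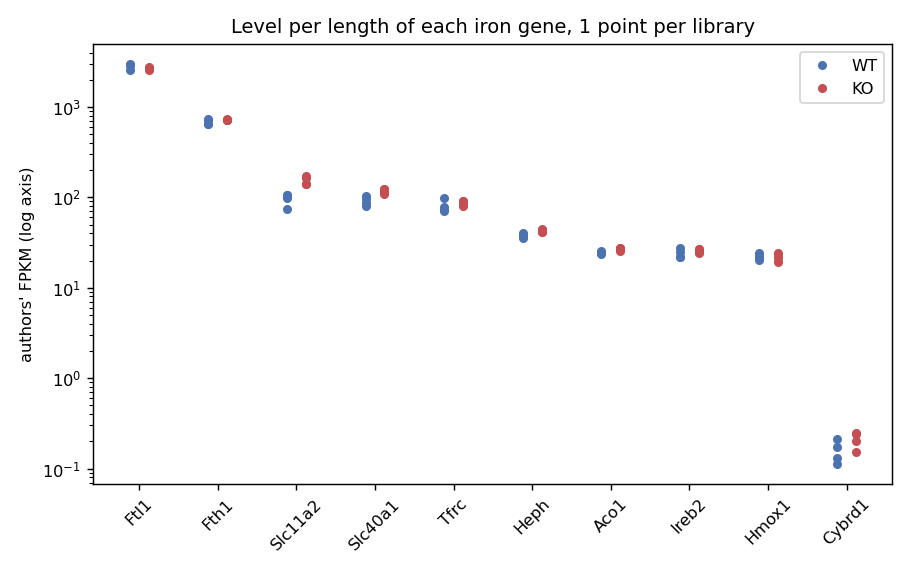
The authors' FPKM of each iron gene on a log axis, with 1 point per WT (blue) and KO (red) library, ordered by the mean of all libraries. The ferritin chains are highest and Cybrd1, at 0.113 to 0.247 FPKM, is lowest.

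Of 84 other genes of iron and haem metabolism, 74 were tested, of which 7 rose and 3 fell (median log2 fold change 0.037). This is 10 of 74 called, beside 15.9% of all genes tested. DESeq2 called 8 higher and 5 lower, and limma-voom 7 and 3. Of the 12 other uptake genes tested 1 rose and 2 fell (4 fell with DESeq2). Slc39a14, which encodes the metal transporter ZIP14, rose from 46.4 ± 1.86 to 55.5 ± 3.09 CPM (edgeR adjusted p = 0.00416), with no overlap. Slc39a8, which encodes the related ZIP8, fell from 23.6 ± 1.45 to 18.9 ± 1.45 CPM (edgeR adjusted p = 0.00503), also with no overlap. The reductase gene Steap4 fell by 0.19 on the log2 scale (edgeR adjusted p = 0.0297), a call that ended without any 1 library except WT replicate 16 (0.0516 to 0.0881) and with no low-count filter (0.0540).

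Of 3 other genes of ferritin loading and turnover tested 1 rose. Ncoa4, the receptor gene for autophagy of ferritin, had 352 to 368 CPM in KO and 285 to 321 CPM in WT, or 0.25 higher in KO on the log2 scale with an SE of 0.04 (edgeR adjusted p = 0.00144). The ferritin genes themselves did not pass, as given above. Of 4 other export genes tested 1 rose and 1 fell. The shares called among all genes tested were 7.63% higher and 8.26% lower, and lists of 3 or 4 genes are too short to weigh against them. Abcg2, a transporter gene that accepts haem and porphyrins among many substrates, rose from 14.8 ± 1.22 to 21.4 ± 0.865 CPM, and ceruloplasmin (Cp), a ferroxidase gene related to Heph, fell from 7.24 ± 1.52 to 4.57 ± 0.809 CPM (SD, n = 4; edgeR adjusted p = 0.000155 and 0.00954). The ferroxidase genes thus had log2 fold changes of 0.20 for Heph and -0.66 for Cp. The Cp groups overlapped at 5.73 CPM in KO replicate 6 and 5.56 CPM in WT replicate 16.

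Of 10 other sensing and control genes tested 3 rose and none fell, beside 7.63% higher and 8.26% lower among all genes tested, with DESeq2 and limma-voom giving the same counts and 4 and 0 at an unadjusted p of 0.05. Nfe2l2, which encodes the antioxidant regulator NRF2, had 348 to 362 CPM in KO and 290 to 299 CPM in WT (log2 fold change 0.27 ± 0.03 SE, edgeR adjusted p = 0.000186). Epas1, which encodes HIF-2α, a regulator known to act on Slc11a2, Slc40a1 and Cybrd1 in the intestine, had 44.9 to 48.0 CPM in KO and 37.1 to 40.1 CPM in WT (0.28 ± 0.05 SE, edgeR adjusted p = 0.00122). Hfe, the haemochromatosis gene, rose by 0.34 on the log2 scale (edgeR adjusted p = 0.0122). Hamp, the gene for hepcidin, which makes ferroportin degrade, and the related gene Hamp2 had 0 counts in every library.

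Haem and iron-sulphur cluster genes moved little. None of 3 other haem breakdown genes and none of 8 haem synthesis genes passed with edgeR, DESeq2 or limma-voom. At an unadjusted p of 0.05, 1 breakdown gene was higher, and 1 synthesis gene was higher and 1 lower. The most abundant of these were Hmox2 and Blvrb, for biliverdin production and reduction, at log2 fold changes of 0.15 and 0.024, and the early haem pathway genes Alad and Alas1, at 0.10 and 0.097. Of 23 mitochondrial iron and cluster genes 1 rose, Abcb10 (0.22, edgeR adjusted p = 0.0406), beside 7.63% called higher among all genes tested. Abcb10 no longer passed when any 1 of KO replicates 5, 7 and 8 and WT replicates 13 and 15 was left out (0.0654 to 0.139) and with no low-count filter (0.0619). None of 11 cytosolic cluster genes passed with edgeR or limma-voom, while DESeq2 called 1 higher, Glrx3 (DESeq2 adjusted p = 0.0401), as did edgeR without WT replicate 15 (edgeR adjusted p = 0.0402). At an unadjusted p of 0.05 the counts were 3 higher and 1 lower. The most abundant, Glrx3 and Ciao2a, had log2 fold changes of 0.11 and 0.10.

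**Figure D5:**
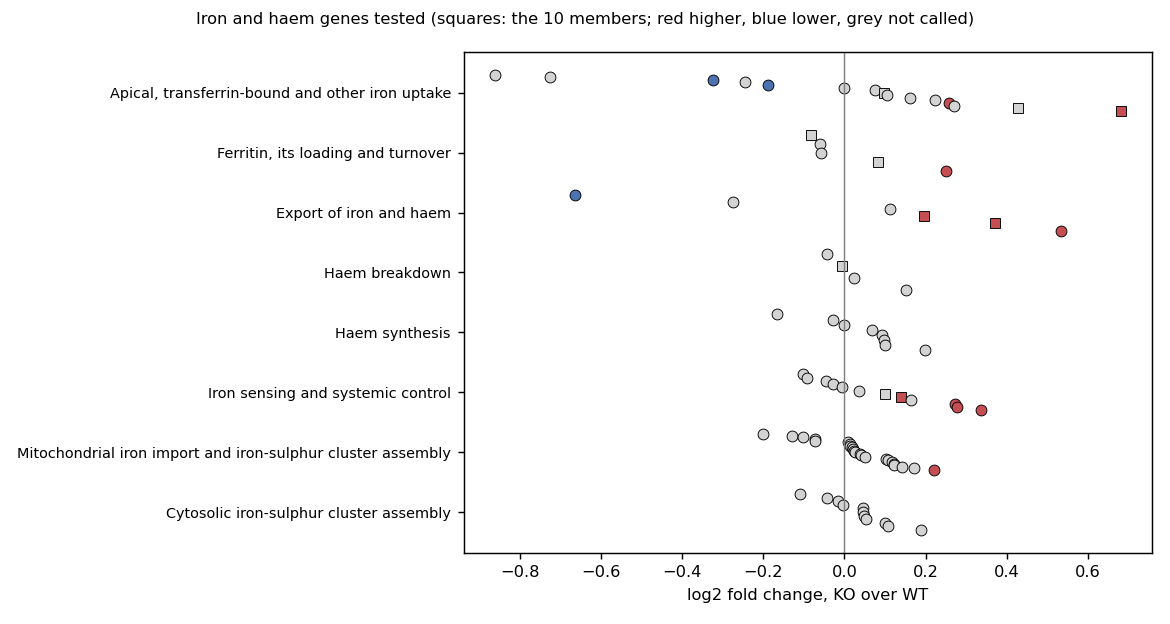
Log2 fold change of KO over WT (x axis) of every tested iron and haem gene by functional list, with the 10 members as squares, genes called higher in red, lower in blue and the rest in grey. The largest called changes are in the uptake and export lists, from Cp at -0.66 to Slc11a2 at 0.68.

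Markers of cell types moved with the same comparison, in which 7.63% of all genes tested were called higher and 8.26% lower. Of 12 absorptive colonocyte markers 9 rose and 1 fell, and their summed level was 6160 to 6492 CPM in KO and 3905 to 4489 CPM in WT. Of 10 crypt stem and cycling cell markers 8 fell, with sums of 1054 to 1099 CPM in KO and 1201 to 1391 CPM in WT. Of 10 goblet cell markers 6 fell, with sums of 119 to 149 CPM in KO and 165 to 222 CPM in WT. Each sum weighs abundant genes most. The most abundant were Lypd8 among colonocyte markers, Mki67 among stem and cycling markers and Agr2 among goblet markers. Of 7 epithelial markers 2 rose, and of 2 macrophage markers tested 1 fell, Cd68. No erythroid marker had enough counts to test, with sums up to 2.66 CPM in KO and 0.222 CPM in WT. Fibroblast and endothelial markers summed to at most 2.39 CPM in any KO library or 0.621 CPM in any WT library, while the 1 tested did not pass. The part of these shifts in the levels of Slc11a2, Slc40a1, Heph and Aco1 was not tested.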

How the data were processed

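The tools named are HTSeq, Bowtie2, TopHat and TopHat2, and the build is GRCm38, per the submitters' processing notes, which give no version or role. The deposited counts are whole numbers per NCBI gene, not normalized, and are the basis of all tests. The authors' FPKM values were used for levels between genes, and the authors' TPM values, which come from the same table, were not used further. Per the labels' protocols, the mRNA libraries were stranded, but the use of strand in counting is not stated there.

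Low counts were removed by filterByExpr, libraries were scaled by TMM, and the quasi-likelihood test of edgeR 4.0.16 (R 4.3.3) was run with no covariate, and p-values were adjusted over all 14945 genes tested. CPM are counts over TMM-scaled library size, and SE is the log2 fold change over the root of F. Ratios were tested by exact permutation over libraries (scipy 1.17.1). Libraries of 1 genotype differed by more than sampling noise, and none was treated as a duplicate. Chi-square was 4.94 to 10.7 times its degrees of freedom for pairs of KO libraries and 11.1 to 24.9 for pairs of WT libraries. For a KO with a WT library it was 25.9 to 41.2. On simulated counts, for KO against WT with 14933 genes run, 64% of genes changed 1.25-fold and 96% of genes changed 2-fold were recovered. There, 10 unchanged genes were called. The simulation gave all genes the same dispersion in both genotypes, whereas WT libraries differed more than KO libraries, so these rates need not hold for the data. Sequences and transcript regions came from GENCODE M21 and gene positions from RefSeq GRCm38.p6, where all 10 members matched by symbol.

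The members, the gene lists, the ratios and the alternatives were chosen with earlier results of these data known. Named are all 10 members, in each other iron list up to 4 genes past an adjusted p of 0.05, taken from the smallest, or else the 2 of highest CPM, and the 4 genes most correlated with the member of smallest adjusted p. Alternatives were other scalings, DESeq2 1.42.0, limma-voom (limma 3.58.1), other low-count filters, an adjusted p of 0.01, FPKM for ratios, and leaving out each library. Marker lists, which were summed or counted only, were epithelium, colonocyte, small intestine, goblet, stem and cycling, macrophage, erythroid, and fibroblast with endothelium.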

Additional observations from a re-analysis of the deposited data

Results flagged for a closer look

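Of 64 groups of 4 libraries examined, 1 had a library far from the rest, and chance gives about 1 in 20. The groups were each member, each named other iron or haem gene and each ratio, in each genotype. The genes named for following Slc11a2 were not examined. For Slc39a14, WT replicate 13 stood at 43.6 CPM, below the other WT libraries, the nearest of which was at 47.2 CPM, and the gap was 0.917 of the range. Without that library Slc39a14 was still higher in KO, at a log2 fold change of 0.23 (edgeR adjusted p = 0.0180).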

How the results depend on the processing

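Slc11a2, Slc40a1 and Heph stayed higher in KO under every scaling, tool, filter, threshold and single-library omission run. An adjusted p of 0.01 left 562 genes higher and 597 lower, and ended the call of Aco1 (log2 fold change 0.14), which no low-count filter also ended (0.14). Leaving out 1 library gave 696 to 1386 genes higher and 724 to 1404 lower, with counts more than 1.5 times smaller than with all libraries without KO replicate 5 (757 higher) or 8 (696 higher, 724 lower) or WT replicate 13 (808 lower). Of the members 3 to 5 were then higher and 0 to 1 lower, and of the other iron and haem genes 6 to 9 higher and 2 to 6 lower (6 without WT replicate 15), and 5 were lower with DESeq2. Without 1 library the log2 fold changes ranged from 0.051 to 0.19 for Tfrc, from 0.048 (without WT replicate 15) to 0.12 for Fth1, from -0.14 to -0.052 for Ftl1, from 0.12 to 0.17 for Aco1, from 0.059 to 0.16 for Ireb2 and from -0.061 to 0.057 for Hmox1. Those of Alad ranged from 0.057 to 0.16. Those of Blvrb ranged from -0.027 to 0.11, negative without WT replicate 13 (-0.025) or 15. The log2 ratio differences ranged from -0.068 to 0.14 for Tfrc to Fth1 and from -0.033 to 0.093 for Aco1 to Ireb2. The cause was not tested. With 3 against 4 libraries fewer regroupings exist, and the lowest p that the exact permutation test can give is above 0.05. No ratio could therefore pass when a library was left out, so these omissions show only the size and direction of the ratio differences. Scaling moved the median of all genes by less than 0.1 on the log2 scale. No paired analysis was possible because the genotypes share no replicate numbers. Depth limits Cybrd1, at 34 to 70 counts per library, for which the interval of the fold change is wide.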

Other observations

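Trf and Lcn2, iron uptake genes outside the naming rule, were picked after their values were seen. The transferrin gene Trf averaged 1.64 ± 0.536 CPM for KO against 2.99 ± 1.23 CPM for WT (SD, n = 4), with overlap, and did not pass (log2 fold change -0.86, edgeR adjusted p = 0.0576). The siderophore-binding lipocalin gene Lcn2 had 0, 16, 12 and 0 counts in KO and 15, 12, 0 and 16 counts in WT, with libraries at 0 in both groups.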
